A study of Homo sapiens with 4 samples.

Results

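The 37 genes described here are a listed set of histone lysine methyltransferases and the PRC2 core subunits, with KMT5A (SETD8) at its head. They were found by name among 57820 gene rows, with KMT5A, KMT5B, KMT5C, NSD2 and NSD3 listed in older annotation as SETD8, SUV420H1, SUV420H2, WHSC1 and WHSC1L1. No measured value is part of the rule, but the names were listed with earlier results of these data known. Of the 37 genes, 36 had enough fragments to be tested, among 16468 genes tested in all. KMT2B had 0 fragments on its row in all 4 libraries, in each of the 3 columns of counts, and was not tested. Fragments that fall on overlapping genes are not assigned by the counting, so this 0 was not read as absence of KMT2B RNA.

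RNA came from SY5Y cells, a human neuroblastoma line whose genotype the labels give as MYCN wild type. Cells were harvested 12 h after SGSS05-NS or after the solvent DMSO, with 2 libraries for each condition, described in the methods as independent biological replicates. The labels give the dose of SGSS05-NS as 3 μM. The study's text calls the compound SGSS05-NS3, a covalent SETD8 inhibitor. It gives this dose for the line in its legends but a lower dose in its methods. The discussion there lists SGSS05-NS by name among the more active members of the series that includes SGSS05-NS3. Whether the labels mean SGSS05-NS or SGSS05-NS3 was not settled. Both conditions used 1 cell line and 1 time point, and the RNA level of an enzyme does not measure its activity.

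Histone lysine methyltransferases transfer methyl groups from S-adenosylmethionine to lysines of histone tails, and most carry the catalytic SET domain. DOT1L uses a different fold. KMT5A places the first methyl group on H4K20 and also methylates p53, and KMT5B and KMT5C add further methyl groups to H4K20. The H3K4 writers KMT2A to KMT2D, SETD1A and SETD1B work in COMPASS complexes at promoters and enhancers, the H3K9 writers build heterochromatin, and EZH1 or EZH2 with EED and SUZ12 form PRC2, which methylates H3K27. The H3K36 writers act over gene bodies. In neuroblastoma, KMT5A is studied for its methylation of p53 and EZH2 for the silencing of neuronal genes.

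Promoters are shown for 4 of the 5 genes whose RNA changed, so that the start regions of genes that rose and of the gene that fell can be compared. Each run holds 250 bases before and 50 bases after the annotated start in RefSeq (GRCh38.p14), 5′ to 3′ on the gene's strand. Capitals mark a CCAAT box (CCAAT) or a cell cycle homology region, abbreviated CHR (TTTGAA or TTCGAA), on either strand.
KMT5A (chr12:123383882-123384181, plus strand): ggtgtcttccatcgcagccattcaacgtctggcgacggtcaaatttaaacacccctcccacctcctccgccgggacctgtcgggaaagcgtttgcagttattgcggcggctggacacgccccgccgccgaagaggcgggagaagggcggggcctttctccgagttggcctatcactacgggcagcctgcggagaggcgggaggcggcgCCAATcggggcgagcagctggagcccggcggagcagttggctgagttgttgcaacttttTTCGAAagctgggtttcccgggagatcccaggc
KMT5C (chr19:55339626-55339925, plus strand): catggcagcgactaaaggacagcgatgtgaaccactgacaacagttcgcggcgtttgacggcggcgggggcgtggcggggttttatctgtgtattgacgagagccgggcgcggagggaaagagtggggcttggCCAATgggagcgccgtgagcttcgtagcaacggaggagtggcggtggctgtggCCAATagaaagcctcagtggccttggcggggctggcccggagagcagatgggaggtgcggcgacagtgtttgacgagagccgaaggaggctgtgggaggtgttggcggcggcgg
KMT2D (chr12:49060745-49061044, minus strand): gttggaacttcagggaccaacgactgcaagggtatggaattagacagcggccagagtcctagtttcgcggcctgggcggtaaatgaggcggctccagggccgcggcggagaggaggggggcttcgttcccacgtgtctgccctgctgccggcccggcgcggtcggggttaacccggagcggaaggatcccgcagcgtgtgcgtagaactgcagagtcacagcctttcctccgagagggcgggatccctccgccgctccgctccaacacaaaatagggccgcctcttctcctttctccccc
EHMT1 (chr9:137618755-137619054, plus strand): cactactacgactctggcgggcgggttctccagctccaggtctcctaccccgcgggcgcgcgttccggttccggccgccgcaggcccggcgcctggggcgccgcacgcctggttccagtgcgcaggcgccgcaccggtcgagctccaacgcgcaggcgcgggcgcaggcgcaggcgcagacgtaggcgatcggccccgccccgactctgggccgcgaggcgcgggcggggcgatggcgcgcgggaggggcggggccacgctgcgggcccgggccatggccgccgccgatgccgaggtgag
The KMT5A promoter shown, 1 of 2 listed for the gene, held 1 CCAAT box and 1 CHR, the KMT5C promoter held 2 CCAAT boxes, and neither motif was found in the KMT2D and EHMT1 windows. GC content was 64.0%, 64.3% and 65% in KMT5A, KMT5C and KMT2D, and 79.3% in EHMT1, which held 51 CpG dinucleotides. The other KMT5A promoter (chr12:123388661-123388960, plus strand) held neither motif, and had a GC content of 76.3% and 42 CpG dinucleotides.

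RefSeq promoters were matched for 34 of the 37 genes, 47 promoters in all. DOT1L, NSD3 and SETD1B were not matched. The 47 promoters had a median GC content of 72.0% and a median of 33 CpG dinucleotides, against 58.7% and 14 in all 35116 promoters of the same length. A CCAAT box was found in 38.3% of them and in 34.6% of all promoters. A CHR was found in 12.8% of the 47 and in 16.4% of all. The E2F letters TTTGGCGC, TTTCGCGC, TTTCCCGC or TTTGCCGC were found in 10.6%, in promoters of EZH1, EZH2, NSD2, SETMAR and SUZ12, and in 3.31% of all. The letters TATAAA were in 0 of the 47 promoters and in 11.5% of all, and the cyclic AMP response element TGACGTCA was found in 2.13% (SUV39H2) and in 1.85% of all. The p53 response element, searched by its consensus, was in 0 of the 47 promoters and in 0.0285% of all. All motifs were searched on both strands. CCAAT, CHR and E2F letters may overlap, and a match describes the letters only.

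Between 21463105 and 25350204 fragments fell on genes in each library. Replicates differed by more than sampling noise in both conditions, with a chi-square per degree of freedom of 8.76 between the DMSO libraries and 11.8 between the SGSS05-NS libraries. Fragments that matched no annotated exon on the counted strand made up 12.4% and 12.3% with DMSO and 16.1% and 15.3% with SGSS05-NS. These shares are of all fragments, unmapped and multiply mapped ones included, and fragments on the opposite strand of a gene can be among them. Of all genes tested, 8.14% fell with SGSS05-NS at an adjusted p under 0.001. Of 9 neuroblastoma markers, 8 were tested and 6 (75%) fell at this threshold. Their summed level in CPM, counts scaled to library size with TMM factors, was 4134 and 4384 with DMSO and 2515 and 2494 CPM with SGSS05-NS, and TH had at most 2 fragments in any library. Of 12 markers of mesenchymal, blood or epithelial cells, 4 (PRRX1, DCN, CD3E and KRT5) were at 0 in all 4 libraries. The summed level of these 12 was 27.8 and 36.4 CPM with DMSO and 56.9 and 56.0 CPM with SGSS05-NS, most of it from FOSL2, a gene for an AP-1 factor that many cell types express, which rose by a log2 fold change of 1.01. COL1A2, a collagen gene, had 0.877 and 1.24 CPM with DMSO and 0.0901 and 0.340 CPM with SGSS05-NS (edgeR adjusted p = 0.00302), and the epithelial gene EPCAM had 1.48 and 1.58 CPM against 2.39 and 3.57 CPM (edgeR adjusted p = 0.0117). In bulk RNA, fewer cells of a kind and less RNA per cell cannot be told apart.

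With SGSS05-NS, 4 of the 36 tested genes rose and 1 fell. KMT5A, KMT5C, KMT2D and SETD1B were higher and EHMT1 was lower at an adjusted p under 0.001 (quasi-likelihood test of edgeR, adjusted by Benjamini-Hochberg over all genes tested, the test and threshold used throughout unless another is named). Of all genes tested, 6.37% rose, 8.14% fell and 14.5% changed in either direction, so the 13.9% of the listed genes that changed lay close to the share of all genes. At a threshold of 0.05, 8 listed genes were higher and 7 lower, 41.7% of the 36, where 22.6% of all genes were higher, 23.7% lower and 46.3% either. With the likelihood ratio test, the kind of test that the study ran, 12 of the 36 genes passed 0.001, which is 33.3%, against 26% of all genes. With single libraries left out, 6 to 8 of the 36 genes passed 0.001, which is 16.7%, 19.4%, 19.4% and 22.2% of them where 16.4%, 15.6%, 16.4% and 13.8% of all genes passed, in the order of the fits named next. The genes gained were SETD4 and SMYD3 without DMSO replicate 1, KMT2A, SETD1A and SMYD3 without DMSO replicate 2, NSD2 and SETD4 without SGSS05-NS replicate 1, and KMT2A, SETD1A, SETD7 and SMYD3 without SGSS05-NS replicate 2, where 8 genes passed. The median log2 fold change was 0.012 over the 36 genes and 0.012 over all genes tested, and 18 of the 36 values were positive. The 36 values ranged from -0.92 to 1.05. Both treated libraries lay above both controls for 13 of the 36 genes and below both for 13. The same held for 6228 and 6074 of the 16468 genes tested. The share of listed genes called was thus close to that of all genes with the quasi-likelihood test on all 4 libraries. Under other settings it lay above or below. It was 11.1% with limma voom, library size only, at least 10 counts in every library, and unstranded counts. The shares of all genes there were 14%, 11.7%, 14.6% and 13.3%.

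**Figure D1:**
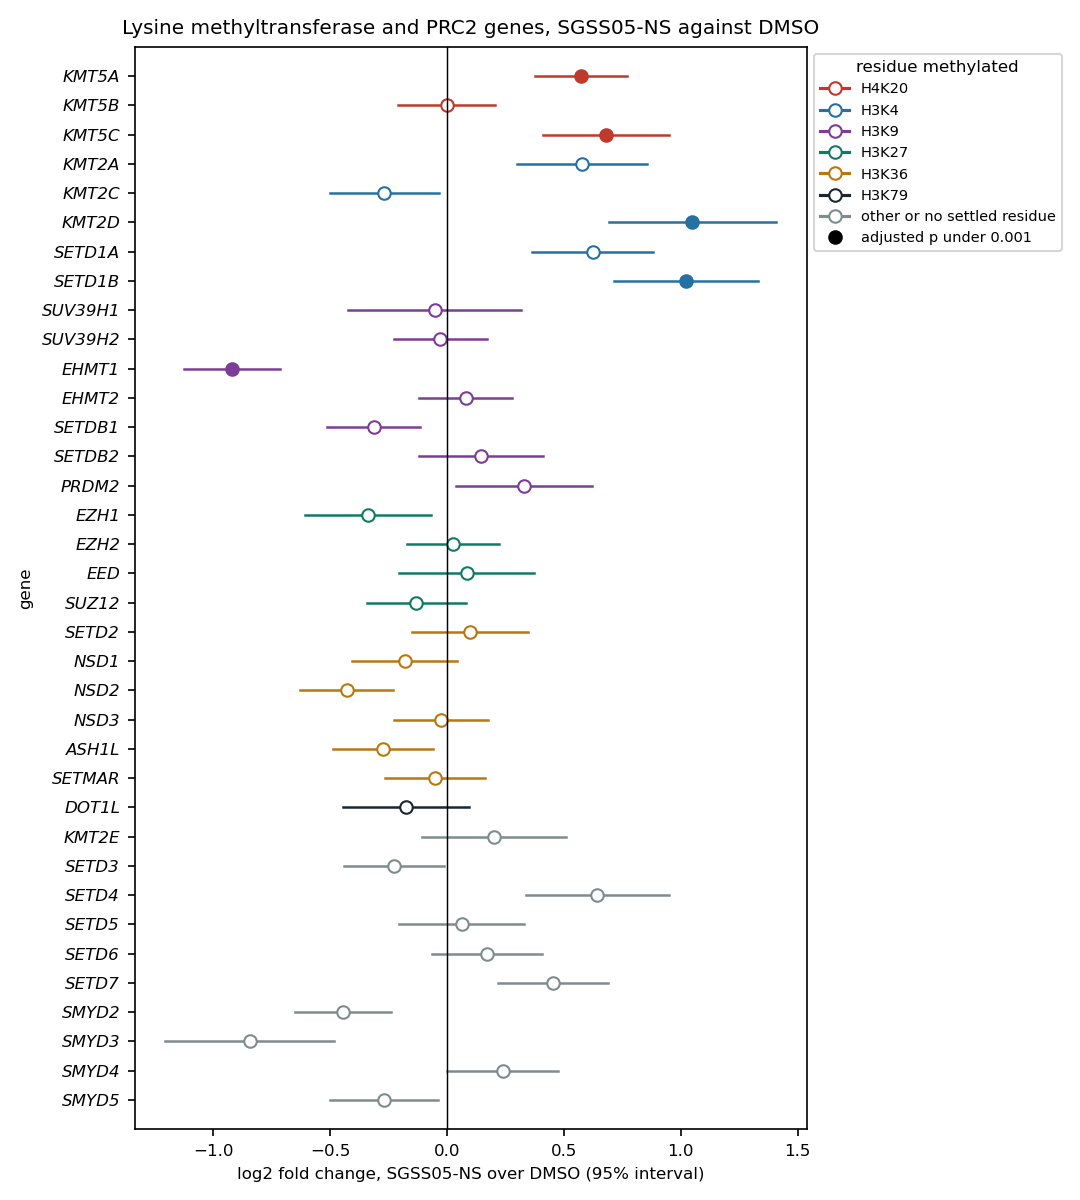
Log2 fold change of SGSS05-NS over DMSO (x axis) for each of the 36 tested genes (y axis), coloured by the residue that the product methylates or that its complex methylates. Points are fitted values, lines are 95% intervals from 4 libraries, and filled points passed an adjusted p of 0.001. KMT5A, KMT5C, KMT2D and SETD1B lie to the right at 0.57 to 1.05 and EHMT1 to the left at -0.92.

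KMT5A, the H4K20 monomethyltransferase and the named target of the compound, lies on GRCh37 at chr12:123868679-123893900 on the plus strand. Its level was 54.6 and 56.8 CPM with DMSO and 82.8 and 83.0 CPM with SGSS05-NS. Both treated libraries lay above both controls, and the gap was larger than the spread within either condition. The means were 55.7 ± 1.53 CPM and 82.9 ± 0.0952 CPM (SD, n = 2 each). KMT5A RNA rose 1.49-fold with SGSS05-NS, a log2 fold change of 0.57 (standard error 0.091, 95% interval 0.37 to 0.77, edgeR adjusted p = 0.00037). Without DMSO replicate 1 the log2 fold change was 0.54 and the adjusted p was 0.00165, past 0.001. Processed pseudogenes of KMT5A exist on chromosomes 2 and 3 (KMT5AP2 and KMT5AP3), and fragments that match such copies equally well are not counted for the gene.

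KMT5C, which adds further methyl groups to H4K20, was measured at 13.6 and 12.3 CPM with DMSO and at 20.4 and 21.2 CPM with SGSS05-NS. KMT5C rose by a log2 fold change of 0.68 (standard error 0.12, edgeR adjusted p = 0.000956), just inside the threshold, with both treated libraries above both controls. This call was lost in 6 of the 13 alternative fits, with values from 0.59 to 0.75 over all of them, and among the 6 were the fits without DMSO replicate 2 (0.59) and without SGSS05-NS replicate 2 (0.65). KMT5B, its paralogue that also adds further methyl groups to H4K20, had 80.1 and 77.9 CPM with DMSO and 83.1 and 74.8 CPM with SGSS05-NS. The conditions overlapped for KMT5B, and the log2 fold change was -0.0011 with a 95% interval from -0.21 to 0.21. The upper end of this interval lies below the fitted values of KMT5A and KMT5C. Whether the 3 genes differed from each other was not tested across the libraries.

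Among 17 genes for the readers and erasers of H4K20 methylation and for the turnover of KMT5A, 1 (5.88%) passed 0.001 and was lower. At 0.05, 2 were higher and 7 lower, 52.9% of the 17. Of all genes tested, 14.5% passed 0.001 and 46.3% passed 0.05. Of the 17 values 12 were negative, with a median log2 fold change of -0.21. SKP2, a ubiquitin ligase subunit linked to KMT5A turnover, fell by 0.70 on the log2 scale from 147 and 138 CPM to 88.1 and 86.6 CPM (edgeR adjusted p = 9.4e-05). NCAPD3, a condensin II subunit that binds the H4K20 mark, had a log2 fold change of -0.47 (adjusted p = 0.0013 by edgeR). L3MBTL1, a reader of methylated H4K20, had a value of 0.78 (adjusted p = 0.00225 by edgeR). Both fall outside the threshold of 0.001.

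The H3K4 writers had the highest median of the residue groups. The median log2 fold change of the 5 tested writers was 0.62, 2 of them (40%) passed 0.001 and 4 (80%) passed 0.05, each on the higher side, where 6.37% and 22.6% of all genes did. The group holds few genes. KMT2D (chr12:49412758-49454577, minus strand), which places the enhancer mark H3K4me1, had 61.7 and 91.0 CPM with DMSO and 179 and 137 CPM with SGSS05-NS. KMT2D rose 2.07-fold, a log2 fold change of 1.05 (standard error 0.16, 95% interval 0.69 to 1.41, edgeR adjusted p = 0.000335), the largest value of the 36 genes in this fit. The conditions did not overlap, but the libraries within each condition stood apart, by 0.56 on the log2 scale between the DMSO libraries and by -0.38 between the SGSS05-NS libraries (replicate 2 over replicate 1). With 1 library left out the KMT2D value ranged from 0.79 to 1.34, and with DESeq2 the adjusted p was 0.00826.

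SETD1B, a catalytic subunit of the main H3K4 trimethylation complex, had 15.3 and 21.3 CPM with DMSO and 37.6 and 36.8 CPM with SGSS05-NS. SETD1B rose 2.03-fold, a log2 fold change of 1.02 (standard error 0.14, edgeR adjusted p = 0.00014). Its call held in all 13 alternative fits. SETD1A, its paralogue, had 23.4 and 28.9 CPM with DMSO and 41.3 and 39.2 CPM with SGSS05-NS, a log2 fold change of 0.62 that missed 0.001 (adjusted p = 0.00127 by edgeR). KMT2A, the MLL1 enzyme that maintains HOX expression, had 39.0 and 49.7 CPM with DMSO and 72.2 and 60.2 CPM with SGSS05-NS, a log2 fold change of 0.58 (adjusted p = 0.0032 by edgeR). With edgeR's likelihood ratio test both passed 0.001 (adjusted p = 1.6e-05 for SETD1A and 0.000192 for KMT2A), and with DESeq2 SETD1A passed (adjusted p = 0.00035). Both treated libraries lay above both controls for SETD1A and for KMT2A, as they did for 6228 of the 16468 genes tested.

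KMT2C, the closest relative of KMT2D with the same substrate, had 144 and 175 CPM with DMSO and 136 and 129 CPM with SGSS05-NS. Its log2 fold change of -0.27 had a 95% interval from -0.50 to -0.036 and an adjusted p of 0.0572 (edgeR). KMT2D made up 30.0% and 34.3% of the fragments of KMT2C and KMT2D together with DMSO and 56.8% and 51.6% with SGSS05-NS. The 95% Wilson intervals, from 28.8% to 35.5% over the DMSO libraries and from 50.4% to 58.0% over the SGSS05-NS libraries, did not meet. Such intervals cover counting error only, and the share is not corrected for the length of the genes.

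The partners of these writers in COMPASS complexes, some shared and some specific to single complexes, are encoded by other genes. Of 13 partners tested, 1 (7.69%) passed 0.001 and was lower, and 1 was higher and 2 lower at 0.05 (23.1%). Of all genes tested, 14.5% and 46.3% passed these thresholds. The median log2 fold change of the 13 partners was -0.085. PSIP1, the chromatin tether of the KMT2A complex, fell by 0.60 on the log2 scale, from 320.2 and 315 CPM to 208 and 212 CPM (edgeR adjusted p = 0.000256). KDM6A, a demethylase in the KMT2C and KMT2D complexes, had a log2 fold change of -0.38 (edgeR adjusted p = 0.00835), and CXXC1, the CpG-binding subunit of the SETD1 complexes, had 0.27 (edgeR adjusted p = 0.0311).

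**Figure D2:**
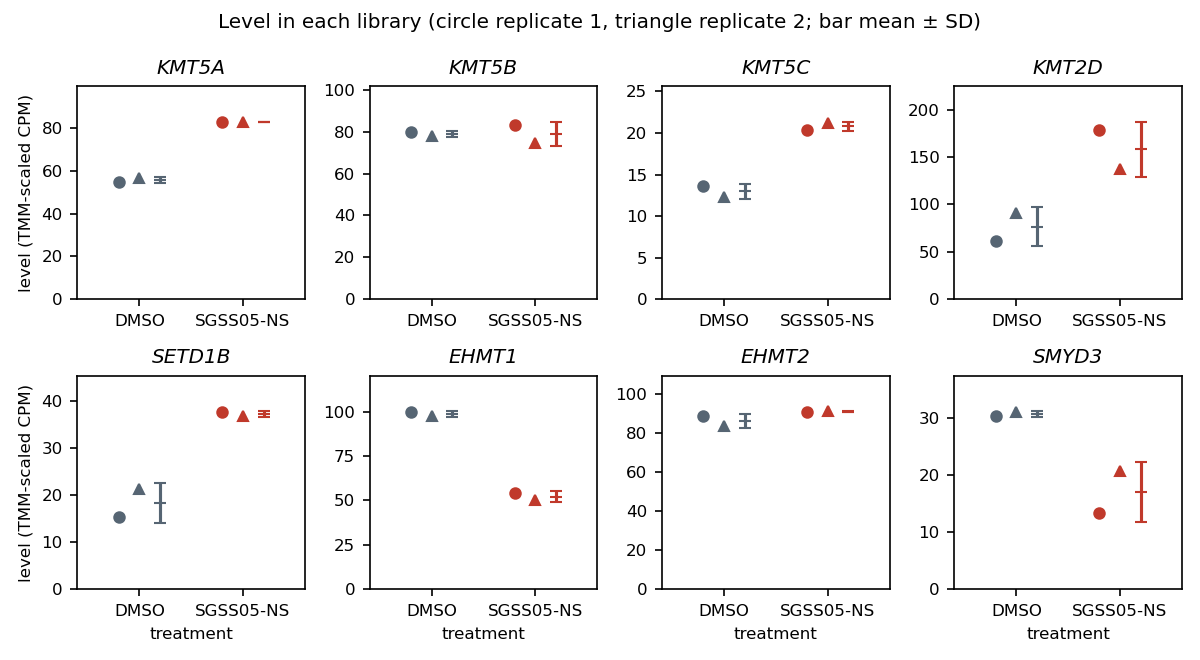
Level of 8 of the genes in each library, in TMM-scaled CPM (y axis from 0), by treatment (x axis). Circles are replicate 1, triangles replicate 2, and bars show the mean ± SD of 2 libraries. Treated libraries lie above the controls in KMT5A, KMT5C, KMT2D, SETD1B and EHMT2, below them in EHMT1 and SMYD3, and on both sides of them in KMT5B.

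EHMT1 (chr9:140513444-140764468, plus strand), which encodes GLP, 1 of the subunits of the euchromatic H3K9 dimethyltransferase, was the only listed gene that fell at 0.001. Its level was 99.6 and 97.4 CPM with DMSO and 54.3 and 49.9 CPM with SGSS05-NS. The replicates lay close together and the conditions far apart. The fitted level with SGSS05-NS was 0.529 times that with DMSO, a log2 fold change of -0.92 (standard error 0.094, 95% interval -1.12 to -0.71, edgeR adjusted p = 1.5e-05), the smallest adjusted p of the 36 genes in this fit. The call held in all 13 alternative fits, with values from -0.99 to -0.86. EHMT2, which encodes its partner G9a, had 88.7 and 83.7 CPM with DMSO and 91.0 and 91.2 CPM with SGSS05-NS, a log2 fold change of 0.080 with a 95% interval from -0.12 to 0.28. EHMT1 made up 52.9% and 53.8% of the fragments of both genes with DMSO and 37.4% and 35.4% with SGSS05-NS. The 95% Wilson intervals ran from 51.5% to 55.3% over the DMSO libraries and from 33.8% to 39.1% over the SGSS05-NS libraries.

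The other H3K9 writers did not pass 0.001. SETDB1, which silences retroelements with TRIM28, had 142 and 137 CPM with DMSO and 110.4 and 114 CPM with SGSS05-NS, a log2 fold change of -0.31 (adjusted p = 0.0141 by edgeR). PRDM2, also called RIZ, had 36.2 and 49.95 CPM against 55.8 and 52.3 CPM, a log2 fold change of 0.33 (adjusted p = 0.0613 by edgeR). SETDB2 had a log2 fold change of 0.15, with 16.1 and 15.2 CPM against 17.1 and 17.5 CPM. SUV39H1 and SUV39H2, the writers of heterochromatic H3K9 trimethylation, had log2 fold changes of -0.053 and -0.029 with 95% intervals from -0.42 to 0.32 and from -0.23 to 0.17. SUV39H1 was the least deeply counted of the 36 genes, with 126 to 145 fragments a library, and its interval is accordingly wide.

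Of 9 tested partners and readers of H3K9 methylation, 2 (22.2%) passed 0.001 and 7 (77.8%) passed 0.05, each on the lower side. Of all genes tested, 8.14% and 23.7% were lower at these thresholds. The median log2 fold change of the 9 was -0.38, where that of the 7 writers was -0.029. The 2 that fell were TASOR, a subunit of the HUSH silencing complex, at -0.60 (edgeR adjusted p = 0.000592) and CBX1, an HP1 protein that binds methylated H3K9, at -0.51 (edgeR adjusted p = 0.000818). ATF7IP, which stabilises SETDB1, had a log2 fold change of -0.49 (edgeR adjusted p = 0.00135).

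Of the 4 PRC2 core genes, 0 passed 0.001 with edgeR's quasi-likelihood test, its likelihood ratio test or DESeq2. The shares of all genes tested that passed were 14.5%, 26% and 16.4%, in that order, and the group holds few genes. An unadjusted p under 0.05 (quasi-likelihood test) was found for 1 of the 4, and for 8807 of the 16468 genes tested. The median log2 fold change of the 4 was -0.053. EZH2, the main catalytic subunit in dividing cells, had 119 and 113 CPM with DMSO and 118 and 118 CPM with SGSS05-NS. The conditions overlapped, and the 95% interval of its log2 fold change ran from -0.17 to 0.22. EZH1, the catalytic subunit more used in resting cells, had 23.3 and 20.5 CPM against 18.1 and 16.5 CPM, a log2 fold change of -0.34 (adjusted p = 0.0412 by edgeR). EED, which binds the H3K27 mark, had 25.4 and 22.9 CPM against 28.8 and 22.5 CPM, a log2 fold change of 0.084, and SUZ12, the scaffold subunit, had a log2 fold change of -0.13 (95% interval -0.34 to 0.079). EZH2 made up 83.6% and 84.7% of the fragments of EZH1 and EZH2 with DMSO and 86.7% and 87.7% with SGSS05-NS. EZH2, EED, SUZ12 and KMT2C have pseudogene copies, whose shared fragments are left out of the counts.

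Of 8 tested accessory partners of PRC2, 1 rose and 1 fell at 0.001 (25%), and 1 was higher and 3 lower at 0.05 (50%). Of all genes tested, 14.5% and 46.3% passed these thresholds. The median of the 8 was -0.14. JARID2, which helps recruit PRC2, fell by 1.503 on the log2 scale, from 59.6 and 64.6 CPM to 22.9 and 20.9 CPM (edgeR adjusted p = 8.3e-07). PHF1, a Polycomb-like protein of PRC2.1, rose by 0.89, from 6.94 and 7.58 CPM to 14.1 and 12.8 CPM (edgeR adjusted p = 0.000481). RBBP7, a histone-binding subunit, had a log2 fold change of -0.38 (edgeR adjusted p = 0.00588).

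Of the 6 H3K36 writers, 0 passed 0.001 with edgeR's quasi-likelihood test, where 14.5% of all genes tested did. An unadjusted p under 0.05 was found for 2 of the 6, which also passed an adjusted 0.05 (33.3%), both lower. Of the 16468 genes tested, 8807 had an unadjusted p under 0.05, and 23.7% were lower at an adjusted 0.05. With the likelihood ratio test and with DESeq2, NSD2 passed 0.001, as did 26% and 16.4% of all genes tested. Of the 6 values 5 were negative, with a median of -0.12. NSD2, the dimethyltransferase known from translocations in myeloma, had 326 and 327 CPM with DMSO and 249 and 236 CPM with SGSS05-NS. Its log2 fold change of -0.43 missed 0.001 (standard error 0.092, adjusted p = 0.00257 by edgeR), although the conditions stood apart and the DMSO libraries lay close together. ASH1L, which counters Polycomb silencing, had 146 and 164 CPM against 133 and 124 CPM, a log2 fold change of -0.27 (adjusted p = 0.0367 by edgeR). NSD1 had 188 and 189.5 CPM against 181 and 152 CPM, a log2 fold change of -0.18.

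SETD2, the enzyme of H3K36 trimethylation over transcribed genes, had 118 and 147 CPM with DMSO and 148 and 135 CPM with SGSS05-NS. The libraries of the conditions overlapped for SETD2, and its log2 fold change was 0.097 (95% interval -0.15 to 0.35). NSD3 and SETMAR had log2 fold changes of -0.027 (95% interval -0.23 to 0.17) and -0.052 (95% interval -0.27 to 0.16). DOT1L, the H3K79 methyltransferase, had 53.8 and 55.3 CPM against 55.0 and 41.7 CPM, a log2 fold change of -0.18 (95% interval -0.44 to 0.092), where SGSS05-NS replicate 2 alone lay below the other 3 libraries. Of all genes tested, 8.14% were lower at 0.001 and 23.7% at 0.05. Of 5 DOT1L partners tested, 2 (40%) passed 0.001, both lower, and the same number passed 0.05. They were MLLT3 (AF9) at -1.32 and MLLT10 (AF10) at -0.78 on the log2 scale (edgeR adjusted p of 1.2e-05 and 0.000114), and AFF4, the scaffold of the super elongation complex, had 0.26 (edgeR adjusted p = 0.0603).

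The 10 genes with other or unsettled substrates split in both directions. With edgeR's quasi-likelihood test 0 passed 0.001, 7 had an unadjusted p under 0.05, and 2 were higher and 2 lower at an adjusted 0.05 (40%). Of the 16468 genes tested, 8807 had an unadjusted p under 0.05. Of all genes tested, 14.5% passed 0.001 and 46.3% passed an adjusted 0.05. SETD4, SETD7, SMYD2 and SMYD3 passed 0.001 with the likelihood ratio test and SMYD3 with DESeq2, where 26% and 16.4% of all genes tested passed. The median log2 fold change was 0.12. SMYD3, a methyltransferase with a cytoplasmic kinase substrate, had 30.3 and 31.0 CPM with DMSO and 13.3 and 20.7 CPM with SGSS05-NS. Its log2 fold change of -0.84 was the lowest of the set after that of EHMT1 but missed the threshold (standard error 0.17, adjusted p = 0.00154 by edgeR), and its SGSS05-NS libraries differed by 0.62 on the log2 scale. With 1 library left out, the value of SMYD3 ranged from -1.20 to -0.57. SMYD2, which methylates p53 and other proteins, had 74.5 and 73.5 CPM against 52.0 and 56.6 CPM, a log2 fold change of -0.45 (adjusted p = 0.00237 by edgeR).

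SETD7, which methylates H3K4 in vitro and many non-histone proteins, p53 among them, had 61.5 and 56.3 CPM with DMSO and 88.2 and 73.2 CPM with SGSS05-NS. Its log2 fold change was 0.45 (adjusted p = 0.00511 by edgeR), and both treated libraries lay above both controls. SETD4 had 17.5 and 14.6 CPM against 22.4 and 27.6 CPM, a log2 fold change of 0.64 (adjusted p = 0.00293 by edgeR). Of the genes whose products methylate p53, KMT5A rose and EHMT1 fell, and SETD7, SMYD2 and EHMT2 had values of 0.45, -0.45 and 0.080.

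KMT2E, a SET protein without known catalytic activity, had a log2 fold change of 0.20, with 77.1 and 112 CPM with DMSO and 111 and 106 CPM with SGSS05-NS. The actin histidine methyltransferase SETD3 had -0.23 with a 95% interval from -0.44 to -0.015. SETD5 and SETD6 had 0.062 and 0.17, and SMYD4 and SMYD5 had 0.24 and -0.27. These 6 genes did not pass 0.05. The effect of SGSS05-NS3 on a panel of purified enzymes was measured in the same work. SETD8 was reported as inhibited at the lowest concentration. The products of EHMT1, EHMT2 and KMT2A were among those reported as inhibited at higher concentrations. The part of such inhibition in the RNA levels was not tested. Of the 10 listed genes that encode enzymes of that panel, 1 rose (KMT5A) and 1 fell (EHMT1) at 0.001, which is 20%. At 0.05, 3 were higher and 4 lower, which is 70%. Of all genes tested, 14.5% passed 0.001 and 46.3% passed 0.05. This group holds few genes.

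**Figure D3:**
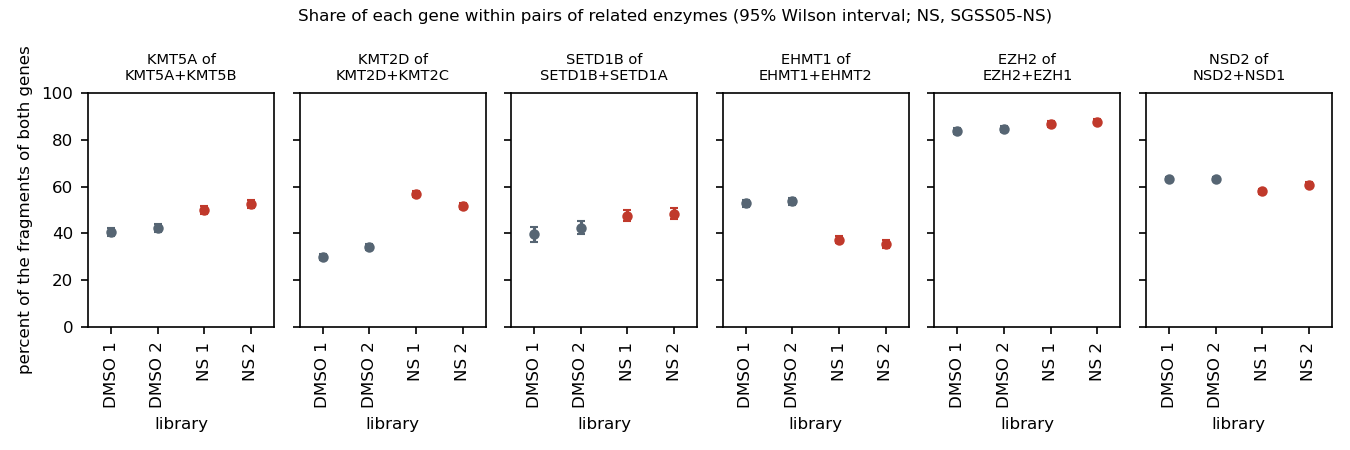
Share of the first gene among the fragments of a pair of related enzymes, in percent (y axis), in each of the 4 libraries (x axis), for 6 pairs. Lines are 95% Wilson intervals, which cover counting error only. KMT2D of KMT2C and KMT2D moves from 30.0% and 34.3% to 56.8% and 51.6%, and EHMT1 of EHMT1 and EHMT2 from 52.9% and 53.8% to 37.4% and 35.4%.

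Within pairs of related enzymes the balance of fragments differed between the conditions. KMT5A made up 40.6% and 42.2% of the fragments of KMT5A and KMT5B with DMSO and 49.9% and 52.6% with SGSS05-NS. SETD1B made up 39.6% and 42.5% of SETD1A and SETD1B with DMSO and 47.7% and 48.4% with SGSS05-NS. The share of NSD2 with NSD1 was 63.4% and 63.3% against 58.0% and 60.8%, and the share of SMYD3 with SMYD2 was 28.9% and 29.6% against 20.4% and 26.8%. In each of these pairs the shares of both treated libraries lay on the same side of both controls, with no test across libraries. With 2 libraries against 2, an exact two-sided permutation test cannot give a p below 0.333.

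Per kilobase of exon, the levels of the set spanned more than an order of magnitude. The mean DMSO level was highest for SETDB1 at 18.9 CPM per kb, followed by SUV39H2 at 17.6, NSD2 at 16.1 and SMYD2 at 15.1. It was lowest for KMT2A at 1.41 CPM per kb, SUV39H1 at 1.85, SETD1B at 2.14 and SETD4 at 2.20. KMT5A stood at 13.2 CPM per kb with DMSO and 19.7 with SGSS05-NS, and KMT5C at 2.72 and 4.36. With SGSS05-NS, KMT5A had the highest level per kb of the 36 genes, ahead of SUV39H2 at 17.3 and SETDB1 at 15.2. Exon length was the union of all annotated exons, which understates the level of genes with many alternative exons.

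Gene span is the distance from start to end of the gene with its introns, and it was set against the fold change. Across the 36 genes, which are not independent replicates, Spearman's rho of the log2 fold change with span was -0.33, against -0.22 over 16042 genes with a span and -0.42 over 12567 protein-coding genes. All values come from the same 4 libraries. Over pairs of 1 treated and 1 control library, rho across the 36 genes ranged from -0.53 to -0.22. Without SMYD3, the longest gene at 758 kb, rho was -0.27, and without SMYD3 and EHMT1 it was -0.21. With exon length in place of span rho was 0.065, and with the GC content of exons 0.16.

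The 4 genes over 200 kb, KMT2C, EHMT1, ASH1L and SMYD3, all had negative values, with a median of -0.56, and the median of 1055 protein-coding genes of that span was -0.82. The 8 genes of 25 to 50 kb, among them KMT5A, KMT2D, SETD1A and SETD1B, had a median of 0.60, where 2623 protein-coding genes of that span had 0.089. The 7 genes of 100 to 200 kb had a median of 0.097 and protein-coding genes of that span -0.28. The 6 genes under 25 kb had a median of 0.014, and protein-coding genes of that span 0.17. The 11 genes of 50 to 100 kb had 0.026, and protein-coding genes of that span -0.039. The medians of the listed genes did not fall steadily with span. EHMT1 with its 251 kb and a log2 fold change of -0.92 thus lay near the median of long genes, and KMT2D with 41.8 kb and 1.05 lay far above that of its span. In the lists of PRC2 and DOT1L partners, JARID2 (276 kb), MLLT3 (281 kb) and MLLT10 (219 kb) fell, while AEBP2 (317 kb) and AFF1 (206 kb) had values of 0.19 and 0.12 that did not pass 0.05. The part of gene length in these results was not tested.

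Mitotic genes and neuroblastoma markers moved with the treatment as well. Of 12 mitotic genes, 7 (58.3%) passed 0.001, each on the lower side, where 8.14% of all genes tested were lower. The median log2 fold change of the 12 mitotic genes was -0.62. Those with the smallest p were TOP2A at -0.74, KIF11 at -0.71 and AURKB at -0.63, and the largest fall was that of AURKA at -0.80. Their summed level was 3462 and 3467 CPM with DMSO and 2595 and 1952 CPM with SGSS05-NS. Of 12 replication genes, 3 (25%) fell, RRM2, MCM3 and MCM6, and the median of the 12 was -0.080. Among the neuroblastoma markers, CHGA fell by 1.37, ELAVL4 by 1.16 and PHOX2A by 0.65 on the log2 scale. KMT5A protein and RNA are known to follow the cell cycle, and the part of these changes in the level of KMT5A or of the other genes was not tested.

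The spread between replicates was not equal across the set. The difference between SGSS05-NS replicates (2 over 1, log2) had a rho of -0.65 with exon length over the 36 genes, and that between the DMSO replicates a rho of 0.32. Over 16042 genes these were -0.12 and 0.079. The 7 tested genes with over 20 kb of exon were all lower in SGSS05-NS replicate 2 than in replicate 1, with differences from -0.38 in KMT2D to -0.078 in KMT2C. Between the DMSO libraries their differences ran from -0.032 in EHMT1 to 0.56 in KMT2D, with NSD1 and NSD2 near 0. The fold changes of KMT2A, KMT2C and KMT2D rest on libraries that differ in this way, and the part of this spread in them was not tested. SETD1A and SETD1B, with 6.99 and 8.56 kb of exon, differed by -0.0765 and -0.032 between the SGSS05-NS libraries. Between the DMSO libraries they differed by 0.29 and 0.46.

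Fragments counted on the strand opposite to a gene were few for most of the set. In KMT5A they were 1 and 1 with DMSO and 7 and 7 with SGSS05-NS, against at least 1327 on its own strand. SETD6 had the largest numbers, with 253 and 260 against 190 and 195, and it lies opposite CNOT1. Several of the listed genes overlap a gene on the opposite strand, such as SETDB1 with CERS2, KMT2E with SRPK2, DOT1L with PLEKHJ1 and AP3D1, SUV39H2 with DCLRE1C, SETD4 with CBR1, SMYD4 with RPA1, NSD3 with DDHD2 and SETMAR with SUMF1. Their main values come from the column for their own strand. KMT5C shares its strand with an overlapping gene, AC020922.1, so that fragments of the overlap are left out of its count.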

How the data were processed

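Per the labels and methods, the authors used Trimmomatic 0.30 for trimming and STAR 2.4.2a with the GENCODE annotation of hg19 for alignment. They deposited raw counts, fragments for each gene in 3 columns (unstranded and each strand), neither normalized nor pooled. The labels name a TruSeq RNA kit and the methods a stranded total RNA kit. Reverse-strand counts were taken. Summary rows were left out.

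SGSS05-NS was compared with DMSO over all 4 libraries in R 4.3.3 by edgeR 4.0.16 (TMM, filterByExpr, quasi-likelihood test, Benjamini-Hochberg over 16468 genes, threshold 0.001). The standard error is the size of the log2 fold change divided by the root of the F statistic, and replicate differences used a pseudocount of 0.5 CPM. DESeq2 1.42.0, limma voom 3.58.1 and other settings were alternatives. The script was tested on simulated data. Positions and lengths came from GENCODE 44 on GRCh37, where 2282 identifiers had no entry, and promoters from RefSeq (GRCh38.p14). No set test was run.

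All 37 listed genes are named, with the 3 genes of smallest p in each other list and any gene of a count of 5 or fewer. Genes and lists were chosen with earlier results of these data known. PAGR1, EPOP, MLLT6 and PECAM1 matched no identifier, and 1 neuroblastoma marker is not reported here. Values per library carry the precision of between 21463105 and 25350204 fragments on genes. Libraries were not paired by replicate number in the main comparison, and whether they were handled in pairs was not settled.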

Additional observations from a re-analysis of the deposited data

Results flagged for a closer look

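Fragments on the strand opposite to the listed genes, which the main comparison does not use, were more frequent with SGSS05-NS. Summed over the genes they came to 29.6 and 34.0 CPM in the DMSO libraries and to 39.83 and 44.3 CPM in the SGSS05-NS libraries, so both treated libraries lay above both controls. Over all genes, fragments on the opposite strand were 4.67% and 4.64% of the fragments on either strand with DMSO and 5.05% and 5.04% with SGSS05-NS, and this share moved in the same direction. DOT1L had 44 and 38 such fragments with DMSO and 132 and 128 with SGSS05-NS. SETDB1 had 81 and 95 against 141 and 181, and EZH1 had 2 and 1 against 10 and 11. KMT2E went the other way, with 124 and 169 against 73 and 79, and so did SETD6, with 253 and 260 against 190 and 195. DOT1L, SETDB1, KMT2E and SETD6 overlap genes on that strand, and the source of these fragments was not tested.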

How the results depend on the processing

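The 4 higher and 1 lower genes became 8 and 7 at a threshold of 0.05. They became 8 and 4 with the likelihood ratio test (33.3% of the listed genes, 26% of all). Without a filter they also became 8 and 4 (33.3%, 15% of all 30755 genes, many with few counts). With the replicate number as a block they became 8 and 2 (27.8%, 22.9% of all), and DESeq2 gave 3 lower genes. The listed share was 11.1% with voom, library size only, at least 10 counts, and unstranded counts. The shares of all genes there were 14%, 11.7%, 14.6% and 13.3%. When single libraries were left out, the lower genes numbered 2 each time, the median log2 fold change ranged from -0.061 to 0.052 and that of KMT5A from 0.54 to 0.58. Without DMSO replicate 1 KMT5A no longer passed 0.001. These fits assume that the lone library varies like the others. The deviations of same-numbered libraries had a correlation of 0.061, which cannot show how the libraries were handled. With exon length in place of span, Spearman's correlation with the log2 fold change was 0.065. KMT2D lost its call with DESeq2, and KMT5C with voom, library size only, at least 10 counts in every library, unstranded counts, and without DMSO replicate 2 or SGSS05-NS replicate 2. Genes near 0 changed sign: with library size only KMT5B (0.032), SUV39H2 (0.0031) and NSD3 (0.0062), without a filter EZH2 (-0.0012), with at least 10 counts KMT5B (0.011), and unstranded EZH2 (-0.012). With a library left out, ranges crossed 0 for KMT5B (-0.086 to 0.074), EZH2 (-0.030 to 0.055), EED (-0.11 to 0.25), SETD2 (-0.064 to 0.25), SETD5 (-0.099 to 0.21), KMT2E (-0.054 to 0.48), NSD3 (-0.083 to 0.021) and DOT1L (-0.40 to 0.012). The cause of these changes was not tested. Of the values of single genes under alternatives, 410 kept direction and side of the threshold, 33 passed it, 8 lost it and 17 changed sign. With 2 libraries for each condition, sparsely counted genes such as SUV39H1 carry wide intervals.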

Other observations

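Of 15 further genes with SET or PRDM domains outside the listed set, 8 had enough fragments to be tested. At 0.001, 2 (25%) passed, both lower, and at 0.05, 2 were higher and 4 lower (75%). Of all genes tested, 14.5% and 46.3% passed these thresholds. The zinc finger gene PRDM15 fell by 0.90 on the log2 scale, from 27.1 and 23.4 CPM to 15.5 and 11.6 CPM (edgeR adjusted p = 0.000496). PRDM10 fell by 0.87, from 21.5 and 19.95 CPM to 10.5 and 12.2 CPM (edgeR adjusted p = 0.000269). PRDM4 had a log2 fold change of 0.44 and did not pass 0.001 (edgeR adjusted p = 0.00263). Their spans were 81.2 kb, 103 kb and 28.4 kb.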
